A study of Mus musculus with 15 samples.

Results

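Genes of the antioxidant and glutathione systems were followed here, taken as a list of 10 symbols: Sod1, Sod2, Cat, Gpx1, Gpx4, Prdx1, Txn1, Gclc, Gclm and Gss. All 10 were found among the 55401 gene identifiers counted, and all 10 were among the 21009 genes with enough counts to be tested. They were listed by function, with no threshold on a measured value.

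The oocytes came from Kunming mice, an outbred stock, and all groups shared this background. Preantral follicles from ovaries of mice 12 to 14 days old were grown in vitro with or without neurotrophin-4 (NT-4), a secreted ligand of the receptor TRKB, and germinal vesicle oocytes were taken on day 6 or day 10. Oocytes of antral follicles grown in vivo (IVV) served as the reference. Each of the 15 libraries was made by SMART-Seq2 from a pool of 6 oocytes, and each of the 5 groups held 3 libraries: IVV (numbered 2, 3 and 4 in the labels), IVG day 10 and IVG day 6 without NT-4, and IVG-NT day 10 and IVG-NT day 6 with it. The labels give neither the age of the IVV donors nor the dose of NT-4, for which the study chose a single concentration after a dose series. In pools, fewer transcripts per oocyte and fewer oocytes that carry the transcript cannot be told apart.

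Oxygen use in the growing oocyte yields superoxide, which superoxide dismutases turn into hydrogen peroxide. Catalase, glutathione peroxidases and peroxiredoxins then remove the peroxide, the glutathione peroxidases at the cost of glutathione and the typical peroxiredoxins at the cost of thioredoxin. Glutathione is made in a pair of steps, by glutamate-cysteine ligase and then by glutathione synthetase, and the oocyte's store of it is known to be drawn on after fertilization, when the sperm nucleus decondenses. Several of these genes are known targets of the transcription factor NRF2, which binds antioxidant response elements in their control regions.

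The core of that element was therefore searched for upstream of the 10 genes. The motif was TGACNNNGC, read on both strands and compared with no other motif, in windows of 300 bases (250 before and 50 after a gene's start) from RefSeq on GRCm38.p6. Windows were at hand for 9 of the 10 genes, Gclc being the one without. The motif occurred for 3 of them, Gclm, Prdx1 and Sod1, and for 14.0% of the 27025 genes with a window (12.4% of 32851 windows). The 250 bases before the start of these 3 genes follow, since they show where the shared letters lie, with the motif in capitals. In each of them the match is on the strand opposite to the gene, so the capitals are its reverse complement.
Gclm, plus strand, chr3:122245307-122245556: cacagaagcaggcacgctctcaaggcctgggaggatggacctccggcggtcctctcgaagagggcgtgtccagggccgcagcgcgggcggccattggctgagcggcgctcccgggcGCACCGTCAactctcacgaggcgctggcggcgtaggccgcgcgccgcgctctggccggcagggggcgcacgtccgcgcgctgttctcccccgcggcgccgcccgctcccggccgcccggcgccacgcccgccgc
Prdx1, plus strand, chr4:116685349-116685598: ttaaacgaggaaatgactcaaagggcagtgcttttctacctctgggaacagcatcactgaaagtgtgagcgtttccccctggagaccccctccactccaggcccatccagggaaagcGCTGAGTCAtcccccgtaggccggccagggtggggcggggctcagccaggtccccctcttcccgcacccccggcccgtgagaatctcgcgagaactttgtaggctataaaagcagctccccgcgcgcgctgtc
Sod1, plus strand, chr16:90220512-90220761: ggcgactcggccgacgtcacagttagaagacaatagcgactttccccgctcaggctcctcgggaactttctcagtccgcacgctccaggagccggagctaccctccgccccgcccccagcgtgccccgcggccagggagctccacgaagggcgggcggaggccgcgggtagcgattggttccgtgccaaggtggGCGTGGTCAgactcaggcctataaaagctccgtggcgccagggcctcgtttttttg
The match begins at position -134 from the start of Gclm, -133 from that of Prdx1 and -56 from that of Sod1. A match describes letters in a window and no binding was measured.

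Library depth ranged from 19033272 to 45575465 counts in IVV and both day 10 groups and from 23684453 to 55593251 in IVG day 6. IVG-NT day 6 stood apart: its replicates 1 and 2 held 5954262 and 7125348 counts over 13338 and 10991 genes, against 50336973 counts and 20283 genes in its replicate 3. Libraries also fell into 2 kinds by the share of counts in the annotated rRNA gene CT010467.1, which was 12.5% to 37.9% in 9 libraries (rRNA-rich: number 3 of IVV and numbers 1 and 2 of the 4 in vitro groups) and 0.187% to 0.714% in 6 (rRNA-poor: numbers 2 and 4 of IVV and number 3 of the in vitro groups). Of 15 oocyte markers, 14 or 15 were detected in every library, with a summed level of 15346 to 30085 CPM (counts scaled by TMM and library total). The 15 granulosa markers summed to 50.7 to 445 CPM, with 4 to 14 detected, 10 markers of theca and stroma to 0.286 to 39.7, 6 of macrophages to 0 to 52.8 and 3 of endothelium to 4.49 to 59.9. Their part in the levels of the 10 genes was not tested.

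The oocytes held these transcripts at very unequal levels. Levels between genes were compared as normalized FPKM, per length of the principal transcript, and set among 11853 genes with such a transcript. By the median over 15 libraries Sod1 had the highest level at 618.5 FPKM (percentile 99.8), followed by Prdx1 at 172 (98.6) and Gpx4 at 90.6 (96.6). Txn1 at 26.3 FPKM (86.0) and Gpx1 at 17.1 (80.4) came next. Sod2 at 4.66 (60.4), Gclm at 2.66 (51.7), Gclc at 2.43 (50.6), Gss at 1.77 (46.4) and Cat at 0.455 (30.7) lay in the middle or lower part. With the union of all annotated exons as length, Prdx1 at 129.8 FPKM came before Sod1 at 99.9, whose exon union of 3970 bases is longer than its principal transcript of 641. In CPM, Prdx1 and Sod1 together made up 68.6% to 85.6% of the sum of the 10 genes in every library. By the median the cytosolic dismutase and a peroxiredoxin were thus the abundant transcripts, and catalase the scarcest, with 0 counts in 4 of 15 libraries. Both shallow IVG-NT day 6 libraries, described above, departed from this. In replicate 2 Prdx1 made up 4.23% of the sum, and its 33.2 FPKM lay below Sod2 (61.8) and Gpx4 (146). In replicate 1 Cat at 1.92 FPKM lay above Gss (0) and Gclm (0.161). All levels that follow are normalized CPM, with means ± SD over 3 libraries of a group.

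**Figure D1:**
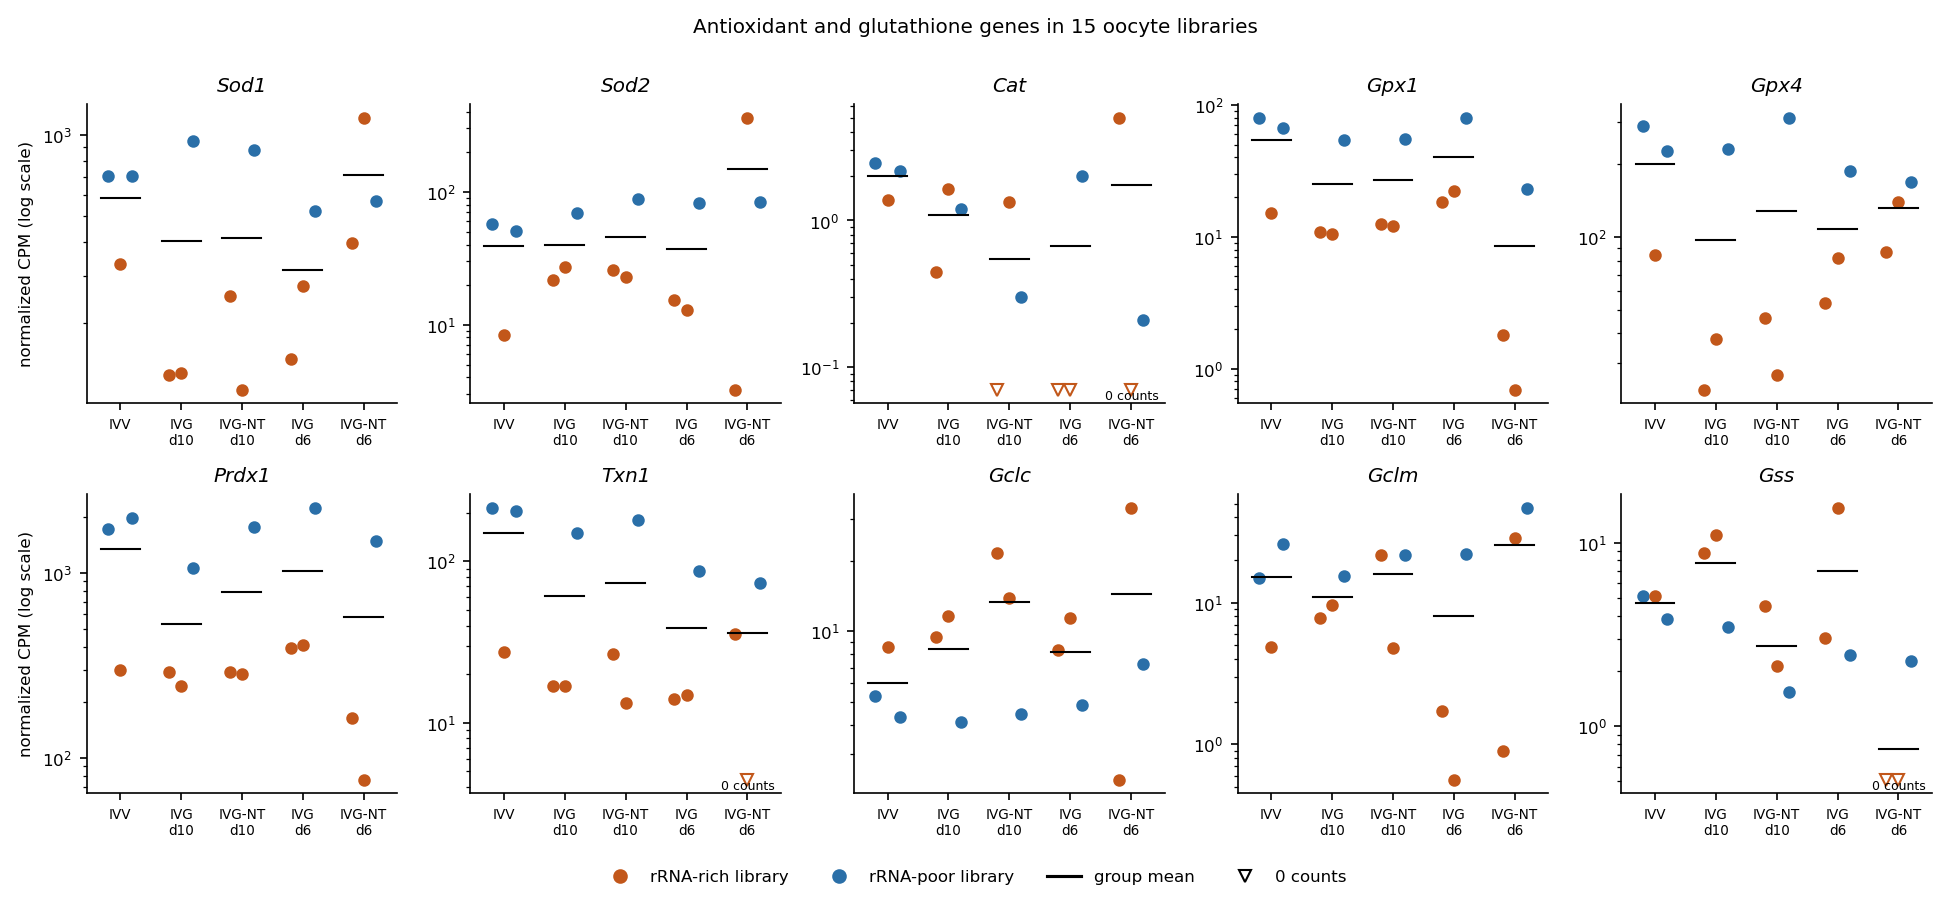
Normalized CPM (log scale, a separate axis per gene) of the 10 genes in each of 15 libraries by group, with rRNA-rich libraries in orange, rRNA-poor libraries in blue, group means as lines and libraries with 0 counts as open triangles below the scale. In the Gpx1, Gpx4, Prdx1 and Txn1 panels every blue point lies above every orange point.

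Superoxide dismutases come first in the chain. Sod1 (ENSMUSG00000022982, chr16:90220754-90226329, plus strand, as are all coordinates of genes here on GRCm38 from GENCODE vM21) encodes the cytosolic copper-zinc enzyme. Its 3 libraries stood at 706, 333 and 705 CPM in IVV, at 128, 130.0 and 951 in IVG day 10, and at 253, 113 and 879 in IVG-NT day 10. On day 6 they stood at 147, 274 and 523 without NT-4 and at 396, 1161 and 567 with it. The groups overlapped in every comparison, and the spread within IVG day 10 (403 ± 475) was wider than any gap between group means (315 ± 191 in IVG day 6 to 708 ± 401 in IVG-NT day 6).

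Sod2 (ENSMUSG00000006818, chr17:13006846-13040063, plus strand) encodes the mitochondrial manganese enzyme. Group means were 38.8 ± 26.6 CPM in IVV, 39.5 ± 26.2 in IVG day 10, 45.6 ± 37.0 in IVG-NT day 10 and 36.9 ± 39.7 in IVG day 6. In IVG-NT day 6 the libraries read 3.23, 362 and 83.9 CPM, so that the lowest and the highest value of all 15 libraries lay in 1 group and its mean of 149.8 ± 188 rested on the shallow replicate 2.

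Of the enzymes that remove hydrogen peroxide, Cat (ENSMUSG00000027187, chr2:103453849-103485160, minus strand) encodes catalase of the peroxisome. It read 2.48, 1.39 and 2.16 CPM in IVV and 0.446, 1.64 and 1.19 in IVG day 10. It read 0, 1.34 and 0.302 in IVG-NT day 10, 0, 0 and 2.0 in IVG day 6 and 5.03, 0 and 0.210 in IVG-NT day 6. The 3 IVV libraries thus lay above the 3 IVG-NT day 10 libraries without overlap, at 13 to 119 counts where any were found.

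Gpx1 (ENSMUSG00000063856, chr9:108338903-108340343, plus strand) encodes the selenium-dependent cytosolic glutathione peroxidase. It read 80.1, 15.1 and 67.2 CPM in IVV, 10.8, 10.6 and 54.3 in IVG day 10 and 12.5, 12.2 and 55.6 in IVG-NT day 10. On day 6 it read 18.3, 22.2 and 79.9 CPM without NT-4 and 1.79, 0.691 and 23.1 with it. The day 6 groups overlapped, since the rRNA-poor IVG-NT replicate 3 lay above the rRNA-rich IVG replicates 1 and 2, while within each kind every IVG-NT library lay below every IVG library. The 2 lowest values were 10 and 4 counts in the shallow libraries.

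Gpx4 (ENSMUSG00000075706, chr10:80047166-80056439, plus strand) encodes the peroxidase that reduces lipid hydroperoxides and guards against ferroptosis. Its group means were 200.1 ± 105 CPM in IVV, 97.6 ± 116 in IVG day 10, 128 ± 159.7 in IVG-NT day 10, 108 ± 71.4 in IVG day 6, against 132 ± 41.7 in IVG-NT day 6. The highest mean was 2.05 times the lowest, the narrowest range of the 10 genes. The annotation names a pseudogene of it, Gpx4-ps2, and how reads of near-identical copies were assigned is not stated in the sources used here.

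Prdx1 (ENSMUSG00000028691, chr4:116685544-116700822, plus strand) encodes a cytosolic thioredoxin-dependent peroxidase. It read 1741, 299.7 and 1993 CPM in IVV, 291, 246 and 1061 in IVG day 10 and 292, 286 and 1781 in IVG-NT day 10. In the day 6 groups it read 395, 409 and 2259 CPM without NT-4 and 164, 76.2 and 1488 with it. In each group every rRNA-poor library read above every rRNA-rich one, and the groups overlapped.

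Txn1 (ENSMUSG00000028367, chr4:57943373-57956411, minus strand) encodes thioredoxin, the reductant of peroxiredoxins. Its group means were 149.97 ± 106 CPM in IVV, 61.4 ± 77.1 in IVG day 10, 73.9 ± 93.7 in IVG-NT day 10, 38.6 ± 41.9 in IVG day 6, against 36.2 ± 36.7 in IVG-NT day 6. No count was found in IVG-NT day 6 replicate 2, against 35.4 CPM in its replicate 1.

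Glutathione synthesis begins with Gclc (ENSMUSG00000032350, chr9:77754535-77794485, plus strand), the catalytic subunit of glutamate-cysteine ligase, which sets the rate of the pathway. It read 5.30, 8.55 and 4.30 CPM in IVV, 9.45, 11.6 and 4.11 in IVG day 10, and with NT-4 on that day 21.7, 13.9 and 4.46. On day 6 it read 8.33, 11.4 and 4.85 CPM without NT-4 and 2.33, 33.7 and 7.24 with it. In every group but IVG-NT day 6 the rRNA-poor libraries were the lowest of their group.

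Gclm (ENSMUSG00000028124, chr3:122245557-122270732, plus strand) encodes the modifier subunit that raises the activity of the enzyme. It read 14.9, 4.88 and 25.9 CPM in IVV, 7.78, 9.69 and 15.3 in IVG day 10, and with NT-4 on that day 21.7, 4.81 and 21.5. The day 6 libraries read 1.72, 0.562 and 21.9 CPM without NT-4 and 0.897, 28.3 and 46.8 with it. Both in vitro day 6 groups thus ran from below 1 to over 20 CPM. Its exons share 296 bases with Gm17494 on the other strand and 244 with the pseudogene Gm6061, and whether strand was used in counting is not stated in the sources used here.

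Gss (ENSMUSG00000027610, chr2:155563181-155592810, minus strand) encodes glutathione synthetase, the second enzyme of the pathway. It read 5.12, 5.12 and 3.86 CPM in IVV, 8.73, 10.9 and 3.48 in IVG day 10 and 4.53, 2.12 and 1.53 in IVG-NT day 10. On day 6 it read 3.04, 15.5 and 2.43 CPM without NT-4 and 0, 0 and 2.25 with it, so that these 2 groups did not overlap. Both libraries with 0 counts were the shallow ones, in which 3 counts, the limit that a count of 0 allows, correspond to 0.538 and 0.519 CPM. Exons of Gss share 395 bases with Acss2, 385 with Gssos2 and 322 with Gssos1, all on the other strand.

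Ordered by group mean, neighbouring groups differed by more than their SDs for Gss alone among the 10 genes, where IVV lay above IVG-NT day 10 and IVG-NT day 10 above IVG-NT day 6. For the other 9 genes no neighbours in the order did. IVV had the highest mean for Cat, Gpx1, Gpx4, Prdx1 and Txn1, IVG-NT day 6 for Sod1, Sod2, Gclc and Gclm, and IVG day 10 for Gss. The highest mean was 2.05 times (Gpx4) to 10.3 times (Gss) the lowest.

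All 6 comparisons of groups and the difference of the NT-4 effect between days were then tested with edgeR's quasi-likelihood test on all 21009 genes. A DEG was a gene whose log2 fold change exceeded 1 in either direction with P under 0.05 before adjustment. None of the 10 genes was a DEG in any comparison, none had an unadjusted P under 0.05, and none had a Benjamini-Hochberg adjusted p under 0.05. With DESeq2's Wald test 1 gene, Gss, passed the DEG threshold in IVG-NT day 6 against IVG day 6 and none did in the other comparisons (adjusted p from DESeq2 = 0.214). Over all genes tested the share of DEGs was 2.76% for IVG day 10 against IVV, 3.29% for IVG-NT day 10 against IVV, 1.24% for IVG-NT against IVG on day 10, 11.6% for the same on day 6, 2.9% for IVG day 10 against day 6, 12.7% for IVG-NT day 10 against day 6 and 6.37% for the difference of the NT-4 effect. At these shares a count of 0 among 10 genes is near the background. The share with an adjusted p under 0.05 was 0.0% in each of them. The standard errors of the 10 genes ran from 0.87 to 2.24 on the log2 scale (1.24 to 3.11 for the difference of the NT-4 effect). Changes of about that size or smaller were not detectable, and values well above their standard error did not pass either. In IVG-NT against IVG on day 6, Gss at -3.12 (SE 1.61) had an unadjusted P of 0.070 from edgeR. Gpx1 at -2.22 (SE 1.26) had 0.096.

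Against IVV, 7 of the 10 genes were fitted lower and 3 higher in IVG day 10, with a median log2 fold change of -0.70 beside -0.20 over all genes. Of the IVV libraries 2 of 3 were rRNA-poor, against 1 of 3 in IVG day 10, and with the kind of library as a term the medians were -0.34 and 0.03. Leaving out 1 library, the median of the 10 genes ranged from -1.55 (without IVG day 10 replicate 3) to -0.42 (without its replicate 1). The smallest P were those of Prdx1 (-1.34, SE 1.12, adjusted p from edgeR = 1) and Gpx4 (-1.04, SE 0.98, adjusted p from edgeR = 1). Among rRNA-rich libraries alone (2 against 1), the difference in mean log2(CPM + 0.1) was -0.16 for Prdx1 and -1.50 for Gpx4, and among rRNA-poor libraries (1 against 2) it was -0.81 and -0.15. No gene was without overlap between these groups, beside 11.9% of all genes.

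The same reference with NT-4 gave a like picture, and the 2 comparisons share the IVV libraries. In IVG-NT day 10 against IVV 7 genes were fitted lower and 3 higher, with a median of -0.71 beside -0.19 over all genes. With the kind of library as a term these were -0.25 and 0.0078, and leaving out 1 library gave -1.62 (without IVG-NT day 10 replicate 3) to -0.27 (without its replicate 2). Gclc (1.14, SE 1.12, adjusted p from edgeR = 1) and Gpx1 (-1.02, SE 1.21, adjusted p from edgeR = 1) had the smallest P. Gclc differed by 1.01 among rRNA-rich and by -0.097 among rRNA-poor libraries, and Gpx1 by -0.28 and -0.40. Cat was the 1 gene of 10 whose groups did not overlap, beside 11.6% of all genes.

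The comparison for NT-4 at the end of culture was IVG-NT against IVG on day 10. Here 8 genes were fitted higher and 2 lower, with a median of 0.24 beside 0.01. Gss (-1.50, SE 1.51, adjusted p from edgeR = 1) and Gclc (0.67, SE 1.11, adjusted p from edgeR = 1) had the smallest P. Gss differed by -1.62 among the 4 rRNA-rich libraries and by -1.13 between both rRNA-poor ones, and Gclc by 0.72 and 0.12. None of the 10 was without overlap, beside 3.59% of all genes. With the replicate number as a block there were again 0 DEGs among the 10.

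On day 6, with the shallow IVG-NT libraries, fitted differences ranged most widely. Here 6 genes were fitted higher in IVG-NT than in IVG and 4 lower, with a median of 0.55 beside -0.27. Gss had a log2 fold change of -3.12 (SE 1.61, adjusted p from edgeR = 0.454) and Gpx1 of -2.22 (SE 1.26, adjusted p from edgeR = 0.488). Between the rRNA-poor libraries (1 against 1) the differences were -0.10 for Gss and -1.79 for Gpx1, and among the rRNA-rich ones (2 against 2) -6.13 and -4.05. The size of -6.13 is set by the 0.1 added to CPM, since Gss had 0 counts in both rRNA-rich IVG-NT libraries. It is no bound of a fold, as 0 counts there allow up to 0.538 and 0.519 CPM. Gss was the 1 gene whose groups did not overlap, beside 8.45% of all genes. These 2 genes turned on which libraries entered. With the kind of library as a term Gpx1 was a DEG at -3.05, beside 15.8% of all genes, and blocking on replicate number gave -3.12, again a DEG, beside 7.32%. Fitted on rRNA-rich libraries alone, 4 of the 10 were DEGs, beside 18.1% of the 25589 genes tested there: Sod1 (1.82) was higher and Gpx1 (-4.11), Prdx1 (-1.83) and Gss (0 counts in both IVG-NT libraries) were lower, with a smallest adjusted p of 0.116. Without IVG-NT day 6 replicate 3, the deep library of that group, 3 were DEGs (Gpx1, Gss and Prdx1), beside 29.1% of the 23447 genes tested there, and without both shallow libraries 0 were. The oocyte markers summed to 15346 to 19039 CPM in IVG-NT day 6 and to 20682 to 30085 in IVG day 6, and the endothelial markers to 4.49 to 19.6 and 25.4 to 52.1. Neither list overlapped between these groups, but the lists of granulosa, theca and stroma, and macrophages did. Granulosa markers summed to 50.7 to 159.7 CPM in IVG-NT and 54.6 to 161 in IVG. Theca and stroma gave 7.95 to 32.5 and 0.286 to 12.0, and macrophages 0 to 52.8 and 0 to 1.48. The endothelial list holds 3 markers, and 1 of them, Cdh5, had 0 counts in both groups. The part of the markers in the differences was not tested.

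Between day 6 and day 10 without NT-4, 7 genes were fitted higher on day 10 and 3 lower, with a median of 0.12 beside 0.05. Prdx1 (-0.94, SE 1.11, adjusted p from edgeR = 1) and Gpx1 (-0.67, SE 1.21, adjusted p from edgeR = 1) had the smallest P. Their differences were -0.59 and -0.91 among rRNA-rich libraries and -1.09 and -0.56 between the rRNA-poor ones. None of the 10 was without overlap, beside 7.42% of all genes.

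With NT-4, 4 genes were fitted higher on day 10 than on day 6 and 6 lower, with a median of -0.08 beside 0.40. Sod2 (-1.71, SE 1.22, adjusted p from edgeR = 0.559) and Gpx1 (1.63, SE 1.23, adjusted p from edgeR = 0.586) led by P. Sod2 differed by -0.52 among rRNA-rich libraries and by 0.074 between the rRNA-poor ones, where Gpx1 differed by 3.34 and 1.26. None of the 10 was without overlap, beside 11.0% of all genes. Without IVG-NT day 6 replicate 2 the log2 fold change of Sod2 was -0.0014. Gpx1 ranged from 0.52 to 4.44 over the fits that left out 1 library, highest without IVG-NT day 6 replicate 3. This comparison and that of IVG-NT with IVG on day 6 share the IVG-NT day 6 libraries.

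The change of the NT-4 effect from day 6 to day 10 was positive for 5 of the 10 genes and negative for 5. The smallest P was that of Gpx1 (2.30, SE 1.72, adjusted p from edgeR = 0.946), followed by Sod2 (-1.81, SE 1.69, adjusted p from edgeR = 0.996), which was -0.071 without IVG-NT day 6 replicate 2. Gpx1 was 5.11 without IVG-NT day 6 replicate 3, the deep library.

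**Figure D2:**
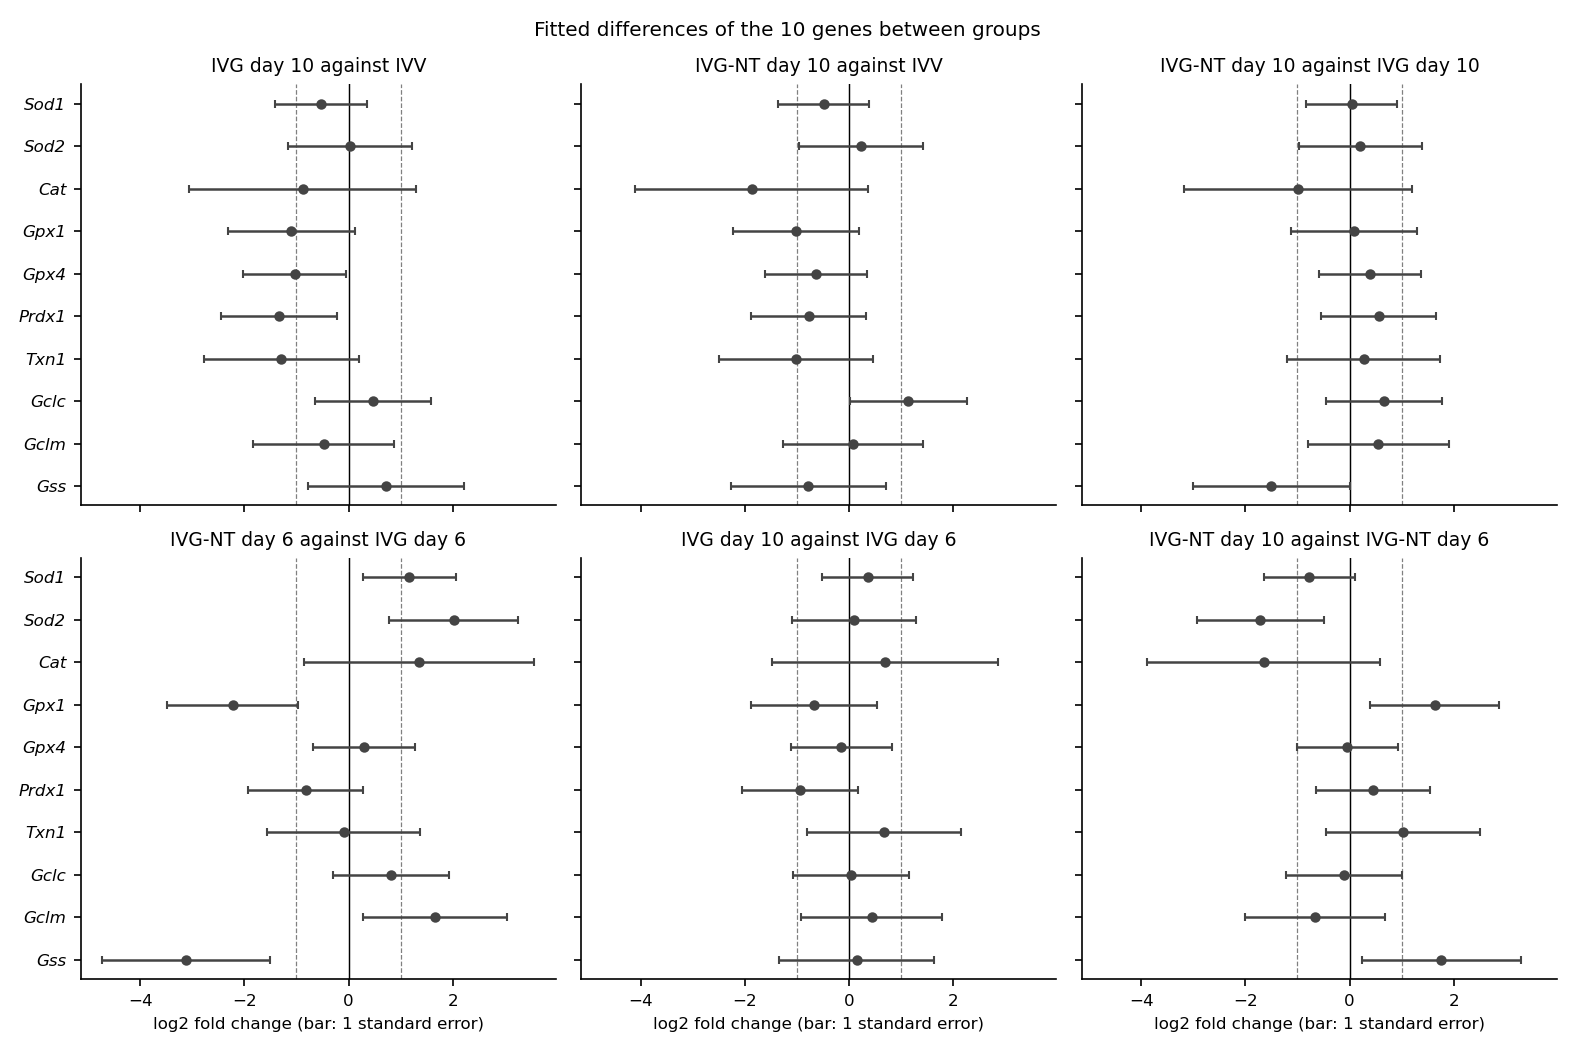
Log2 fold change with 1 standard error of each of the 10 genes in the 6 comparisons (first group against second, edgeR fit over 15 libraries), with the solid line at 0 and dashed lines at the DEG threshold of 1 in either direction. Differences are widest on day 6 with NT-4, where Gss lies at -3.12 and Gpx1 at -2.22, and no gene passed the test in any panel.

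The kind of library moved with several of the genes inside every group. In every group, each rRNA-poor library lay above each rRNA-rich library for 4 of the 10 genes, Gpx1, Gpx4, Prdx1 and Txn1, beside 16.4% of all genes tested. For 0 of the 10 was it below in every group, beside 4.97% of all genes. Across all libraries Prdx1 ranged from 76.2 to 409 CPM in rRNA-rich and from 1061 to 2259 in rRNA-poor ones, and Txn1 from 0 to 35.4 and from 73.4 to 216. Gpx4 ranged from 23.3 to 140.4 CPM and from 169 to 313, and Gpx1 from 0.691 to 22.2 and from 23.1 to 80.1. The 2 kinds did not overlap for these 4 genes, whatever the group, and the share of all genes without such overlap is not given here.

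Averaged over groups, rRNA-poor minus rRNA-rich log2 CPM (with a prior count of 2) was 3.53 for Txn1, 2.69 for Prdx1, 2.61 for Gpx1, 2.29 for Gclm, 1.98 for Sod2, 1.97 for Gpx4 and 1.49 for Sod1. It was 1.15 for Cat, 0.25 for Gss and -1.08 for Gclc, beside a median of 0.62 and quartiles of -0.61 and 1.85 over all genes. Gclc was lower in the rRNA-poor mean in 5 of 5 groups, and Txn1 in none. The difference fell with transcript length over all genes, from a median of 2.54 for 1031 genes with principal transcripts up to 1000 bases to 1.45 for 2784 genes up to 2000, 0.60 for 2757 up to 3000, -0.0022 for 3329 up to 5000 and -0.67 for 1952 longer ones. Txn1 (1051 bases), Gpx1 (1072), Gpx4 (959) and Sod1 (641) have short transcripts, whereas Gclc has 3423 bases. Prdx1, with 2294 bases, had a difference of 2.69 where genes of 2000 to 3000 bases had a median of 0.60. Gclm with 5589 and Sod2 with 5861 bases were nevertheless higher in rRNA-poor libraries. What sets the kinds apart was not tested, and neither was the part of length.

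**Figure D3:**
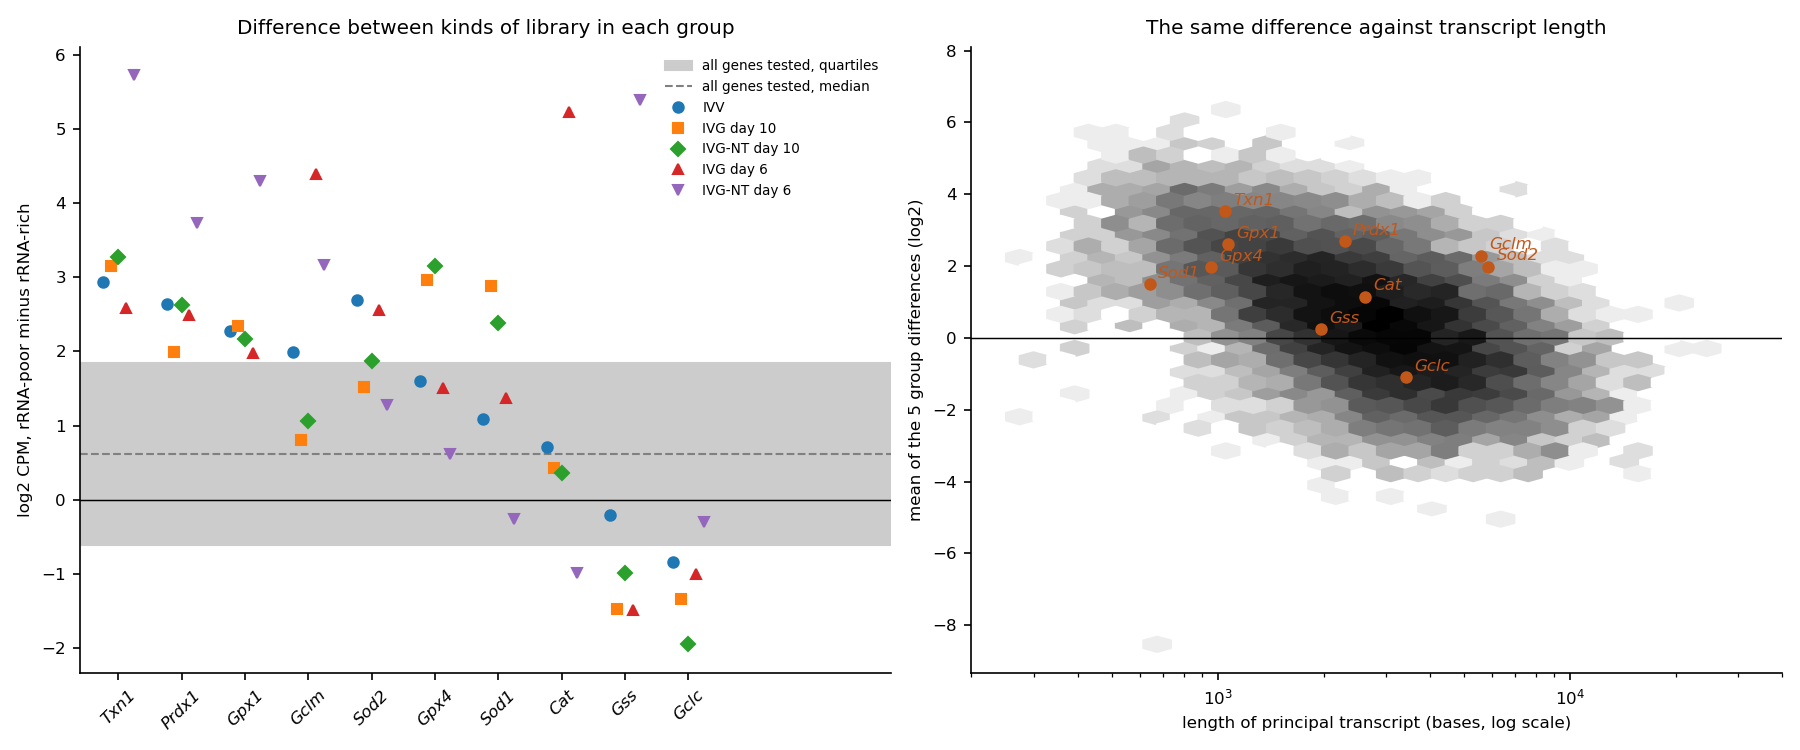
Left, rRNA-poor minus rRNA-rich log2 CPM of each gene within each of the 5 groups, with the median and quartiles of all genes tested as a dashed line and a grey band. Right, the mean of the 5 differences against the length of the principal transcript (bases, log scale), all genes as grey density and the 10 genes in orange. Txn1 lies highest at 3.53 and Gclc lowest at -1.08.

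The 2 subunits of glutamate-cysteine ligase went apart with the kind of library, a contrast that scaling between libraries cannot alter because both are read in the same library. Gclm per Gclc, as a ratio of FPKM, ranged from 0.0302 to 0.613 in the 9 rRNA-rich libraries and from 1.71 to 3.96 in the 6 rRNA-poor ones. The catalytic subunit was thus the more abundant transcript in each rRNA-rich library and the modifier in each rRNA-poor library. In IVG-NT day 6 replicate 1 the ratio rested on 5 Gclm and 13 Gclc counts. The lowest ratio, in IVG day 6 replicate 2, rested on 11 Gclm counts. How often other pairs of genes part by kind in this way was not computed. Between groups the mean log2 ratio was 0.38 ± 1.73 in IVV, -0.26 ± 1.25 in IVG day 10, -0.46 ± 1.91 in IVG-NT day 10, -2.19 ± 3.33 in IVG day 6, against -0.35 ± 2.10 in IVG-NT day 6. Two-sided exact permutation tests of the 6 comparisons gave p from 0.4 to 1 (1 in each after adjustment over the 6), where 0.1 is the smallest p that 3 libraries against 3 allow. The shares of bases that Gclm has in common with Gm17494 and Gm6061 touch this ratio, and their part was not tested.

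**Figure D4:**
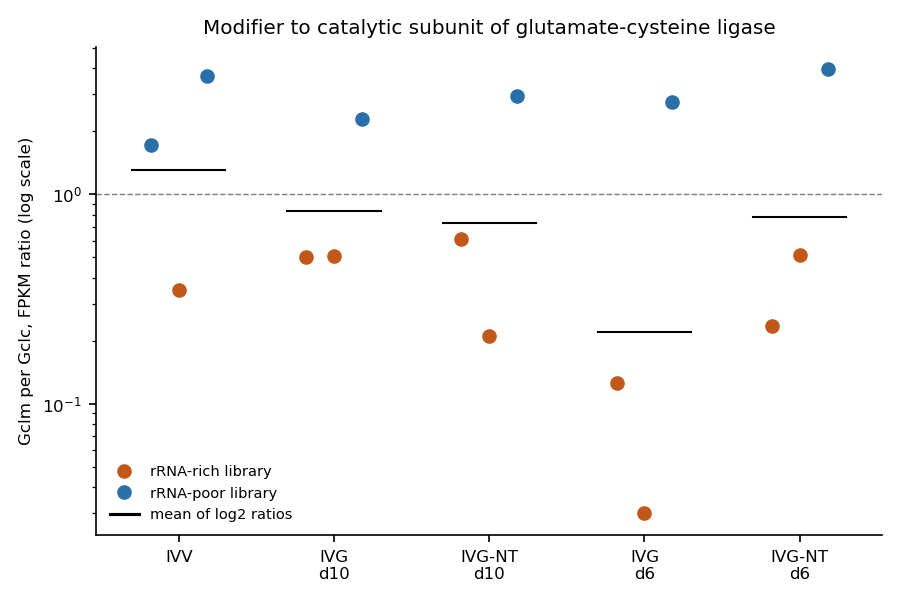
Gclm per Gclc as a ratio of FPKM (log scale) in each of 15 libraries by group, rRNA-rich in orange and rRNA-poor in blue, with the mean of the log2 ratios per group as a line and a dashed line at 1. The 9 orange points lie from 0.0302 to 0.613 and the 6 blue points from 1.71 to 3.96.

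The pattern of each gene over the 15 libraries was also set against all genes tested, by the root mean square difference of centred log2 CPM. The kind of library, depth and scaling enter these patterns. The difference between kinds was unequal between genes, from -1.08 for Gclc to 3.53 for Txn1, and its part in the matches was not tested. Within the list Sod1 and Gpx4 were the nearest pair at 0.46, followed by Gpx1 and Prdx1 at 0.77. The nearest genes outside it were Anapc11 (0.34) for Sod1, the ribosomal protein genes Rpl13 (0.21) and Rps13 (0.31) for Gpx4, Gemin7 (0.31) for Prdx1 and Ddx18 (0.45) for Gpx1. For Txn1 it was 1110008L16Rik (0.42), for Gclc Serpine2 (0.38), for Sod2 Timm44 (0.56), for Gss H2-K1 (0.56), for Gclm Rpp14 (0.85) and for Cat Unc13a (1.08).

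A wider list of 80 genes of the same systems (other peroxidases, the thioredoxin and glutaredoxin system, glutathione transferases and turnover, NADPH supply, methionine sulfoxide repair, and control by NRF2) had 73 genes tested. No gene of it was a DEG in the 3 comparisons among IVV, IVG day 10 and IVG-NT day 10. In IVG-NT against IVG on day 6, 5 were higher and 3 lower (11.0% of the 73, beside 11.6% of all genes). In IVG day 10 against day 6, 3 were higher and 0 lower (4.11%, beside 2.9%), and in IVG-NT day 10 against day 6, 4 were higher and 5 lower (12.3%, beside 12.7%). The shares lie near the background, and none of these genes had an adjusted p under 0.05. Several rest on the 2 shallow libraries.

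Among genes under NRF2 control, Hmox1, the inducible heme oxygenase, had 0 counts in all 3 IVG-NT day 6 libraries. It read 3.65, 0.256 and 0.409 CPM in IVG day 6 and 17.7, 9.11 and 2.04 in IVG-NT day 10. The limit that a count of 0 allows in the shallow libraries, 0.538 and 0.519 CPM, lies above the values of IVG day 6 replicates 2 and 3, so that a difference from these was not detectable there. In the deep replicate 3 of IVG-NT day 6 that limit was 0.0486 CPM, below all IVG day 6 values. The log2 fold change on day 6 was -8.72 (SE 2.34, adjusted p from edgeR = 0.381). Without both shallow libraries it was -8.85. These values come from a group at 0 counts and are no bounds of a fold. Sesn2, a sestrin induced by stress, read 192, 139.7 and 1.33 CPM in IVG-NT day 6, 1.14, 9.82 and 2.02 in IVG day 6 and 3.66, 4.0 and 2.51 in IVG-NT day 10. It was higher in IVG-NT than in IVG on day 6 (log2 fold change 4.68, SE 1.40, adjusted p from edgeR = 0.381), with both high values in the shallow libraries. Nfe2l2, which encodes NRF2 itself, read 89.7, 48.1 and 9.28 CPM in IVG-NT day 6 and 13.1, 3.48 and 6.72 in IVG day 6 (2.66, SE 1.03, adjusted p from edgeR = 0.384). The shallow libraries were again the 2 highest, and without both of them the log2 fold change was 0.34. The DEG call was also lost without IVG-NT day 6 replicate 1 (1.88) and without IVG day 6 replicate 2 (2.29) or 3 (2.55).

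Of the enzymes, extracellular Sod3 was found in IVG-NT day 6 in replicate 2 alone, at 151 CPM, and was between 0 and 1.08 CPM in the libraries of all other groups. Srxn1, the sulfiredoxin that restores overoxidized peroxiredoxins, read 65.3, 0 and 0.0648 CPM in IVG-NT day 6 and had 0 counts in all IVG-NT day 10 libraries. Each of these 2 calls thus rested on 1 library. Pgd, a source of NADPH in the pentose phosphate pathway, read 9.87, 19.2 and 16.4 CPM in IVG-NT day 6 and 55.9, 103 and 18.5 in IVG day 6 (-1.96, SE 0.91, adjusted p from edgeR = 0.424). The glutathione transferase Gstm7 read 0, 0 and 0.194 CPM and 1.72, 12.1 and 0.395 in the same groups (-5.71, SE 2.53, adjusted p from edgeR = 0.407). Its 0 counts lay in the shallow libraries, where the limits of 0.538 and 0.519 CPM exceed the 0.395 of IVG day 6 replicate 3. Neither Pgd nor Gstm7 was a DEG with DESeq2's size factors (-1.49 and -5.34) or without IVG day 6 replicate 2 (-1.30 and -3.61). With the kind of library as a term both were (-1.56 and -8.51).

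Of the DEGs that were higher on day 10 than on day 6, 4 others are described here, all with 0 counts in the day 6 group compared. Nnt, the mitochondrial transhydrogenase that supplies NADPH, read 0, 0.833 and 27.6 CPM in IVG day 10 and 0 in all IVG day 6 libraries. In IVG-NT day 10 the high value, 33.5 CPM, likewise lay in 1 library, numbered replicate 3. Gstm1, a glutathione transferase, read 0, 0.270 and 2.27 CPM in IVG day 10 and 0, 2.15 and 3.95 in IVG-NT day 10, with 0 counts in all 6 day 6 libraries. Gpx8, a peroxidase of the endoplasmic reticulum, reached 0.541 CPM in IVG day 10 and had 0 counts in all IVG day 6 libraries. Gpx7, another peroxidase of that compartment, read 0, 0.437 and 3.32 CPM in IVG-NT day 10 and had 0 counts in all IVG-NT day 6 libraries. Each of the 4 also had 0 counts in replicate 1 of the day 10 group compared. The highest values of Nnt, Gstm1 and Gpx7 lay in the rRNA-poor replicate 3, and on rRNA-rich libraries alone none of the 4 was a DEG. Gpx8 was not a DEG with the replicate number as a block either.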

How the data were processed

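RNA of 15 pools of oocytes (5 groups of 3) was amplified with SMART-Seq2, primed with oligo(dT), and sequenced as pairs. The authors removed reads with adaptors or low quality, mapped what remained to mm10 (HISAT2), and deposited raw counts per Ensembl gene and library, without normalization. How counts per gene were taken, and from which annotation, is not given in the sources used here for the oocytes. StringTie is named for FPKM, and FPKM here were computed from the counts. The submitters' processing notes also name FastQC and edgeR, without versions.

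The analysis used R 4.3.3 with edgeR 4.0.16 (filterByExpr with a minimum count of 10, TMM, group means of 15 libraries fitted together and compared by quasi-likelihood) and DESeq2 1.42.0 as an alternative, and in Python 3.11.15. Of 55401 identifiers, 99.5% have a symbol in GENCODE vM21 (GRCm38, the build of mm10). In each comparison p-values were adjusted by Benjamini-Hochberg over 21009 genes. The standard error is the size of the log2 fold change divided by the square root of F. Depth was 5954262 to 55593251 counts per library. The DEG threshold is the one the study used. Floors (3 counts) cover counting error, and errors given as SD are the spread between libraries.

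The pools are called replicates in the labels, and the study takes them from repeated experiments without saying which pools share one. Samples with the same replicate number deviated together most for IVG-NT against IVG on day 10 (correlations 0.37, 0.41 and 0.73). For IVG day 10 against day 6 the correlations were 0.23, 0.15 and 0.54. They were weaker for IVG-NT against IVG on day 6 (0.083, 0.11 and 0.33) and IVG-NT day 10 against day 6 (0.080, 0.066 and 0.26). Against IVV they were negative. The kind of library follows the number in the in vitro groups, so the correlations cannot tell a shared experiment from a shared kind. The limit of 5% of counts between rRNA-rich and rRNA-poor libraries was chosen once those shares were known. The fits were run on simulated counts that held no difference between rRNA-rich and rRNA-poor libraries. The simulation thus does not cover that feature of these data.

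The 10 genes and all lists were chosen with earlier results of these data known. All 10 genes are named with their levels, and fitted differences are given for each DEG among them and for the 2 smallest P per comparison. Genes of the wider list are described where they were DEGs with a mean of at least 10 counts, at most 3 per direction and comparison by P. For likeness, the 2 nearest genes were computed per gene, of which at least the nearest is given. Promoter windows are those of RefSeq on GRCm38.p6.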

Additional observations from a re-analysis of the deposited data

Results flagged for a closer look

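In the interaction test of the NT-4 effect between day 6 and day 10, 4 genes of the wider list were DEGs. This is 5.48% of the 73 tested, near the 6.37% of all genes, and 0 of the 10 genes were. On the log2 scale the day 10 effect minus the day 6 effect was 8.66 for Hmox1 (SE 2.69), -5.70 for Sesn2 (SE 1.83), -13.2 for Srxn1 (SE 4.43) and -11.1 for Sod3 (SE 4.26), each with an unadjusted P under 0.05 and an adjusted p of 0.664 from edgeR. The values of Hmox1, Srxn1 and Sod3 come from groups at or near 0 counts and are no bounds of a fold. All 4 rest on the IVG-NT day 6 libraries, of which replicates 1 and 2 are shallow. Srxn1 (-8.29) and Sod3 (-5.95) were also no longer DEGs without IVG day 10 replicate 3. Over the fits that left out 1 library, Hmox1 ranged from 6.59 to 9.20 and Sesn2 from -7.13 to -4.62.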

How the results depend on the processing

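The 10 genes gave 0 DEGs in each comparison. This count (within 1.5 times) and their median (by less than 1.10 log2, the SD between libraries) stayed close in 154 of 172 alternatives and moved in 18. The tolerance of 1.10 is wider than every median of the main fit (largest in size -0.71). A median could therefore change sign and still count as close. The direction of a single value or ratio turned in 19 of 471. In IVG-NT against IVG on day 6 the count was 1 with DESeq2's Wald test (Gss, beside 12.5% of all genes), 4 with library kind as a term (Sod1, Sod2, Gpx1 and Prdx1, beside 15.8%), and 4 on rRNA-rich libraries alone (beside 18.1%). With the replicate number as a block it was 3 (Sod1, Gpx1 and Prdx1, beside 7.32%), where same-numbered libraries correlated by 0.083, 0.11 and 0.33. In IVG-NT day 10 against day 6 the block gave 1 (Gpx1, beside 8.46%), the covariate 3 (beside 16.9%) and rRNA-rich libraries alone 4 (beside 19.5%). In IVG-NT against IVG on day 10 and in IVG day 10 against day 6, the block changed no call among the 10 genes.

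Leaving out 1 library gave 0 to 2 DEGs among the 10 for IVG day 10 against IVV (2 without IVG day 10 replicate 3, Sod1 and Gpx4, beside 4.56% of all genes) and 0 to 1 for IVG-NT day 10 against IVV (1 without IVG-NT day 10 replicate 3, Gpx4, beside 4.77%). It gave 0 to 3 for IVG-NT against IVG on day 6 (3 without IVG-NT day 6 replicate 3, namely Gpx1, Gss and Prdx1, with a smallest adjusted p of 0.0162 from edgeR, beside 29.1%, 3 without IVG day 6 replicate 3, namely Sod2, Cat and Gclm, beside 11.2%, and 1 without IVG-NT day 6 replicate 1, Sod2, beside 10.2%). The count was 0 to 1 for IVG day 10 against day 6 (Cat without IVG day 6 replicate 3, beside 3.91%), 0 to 3 for IVG-NT day 10 against day 6 (3 without IVG-NT day 6 replicate 3, beside 30.8%, 1 without its replicate 1, beside 10.6%) and 0 to 3 for the difference of the NT-4 effect between days (3 without IVG-NT day 6 replicate 3, beside 21.1%, 1 without IVG day 6 replicate 3, beside 7.17%). The median of the 10 genes changed sign in IVG-NT against IVG on day 10 (-0.96 to 1.11), IVG day 10 against day 6 (-0.90 to 0.74) and IVG-NT day 10 against day 6 (-0.97 to 0.16). In IVG day 10 against day 6, Prdx1 ranged from -1.93 to 0.41 and Gpx1 from -1.91 to 0.32, both turning without IVG day 6 replicate 3. The cause was not tested.

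Without both shallow IVG-NT day 6 libraries, a setting chosen after seeing the data, Sesn2 turned to -1.59 and Sod3 to -3.06 in IVG-NT against IVG on day 6, and to 1.24 and 5.02 in IVG-NT day 10 against day 6. Leaving out 1 library, Sod3 ranged from -2.99 to 13.7 in the first of these comparisons, from -13.8 to 4.93 in the second and from -15.9 to 2.69 for the difference between days, turning without IVG-NT day 6 replicate 2. The log2 ratio of Gclm to Gclc ranged from -1.59 to 0.11 for IVG day 10 against IVV, from -1.85 to 0.049 for IVG-NT day 10 against IVV, from -1.21 to 0.69 for day 10 IVG-NT against IVG and from -1.12 to 1.06 for IVG-NT day 10 against day 6. On rRNA-rich libraries alone it was 0.54, 0.046 and 0.050 in the first, second and last of these, against negative values over all libraries. Scaling by DESeq2's size factors shifted the median of all genes in IVG-NT against IVG on day 6 from -0.27 to 0.0033, with 0 DEGs among the 10.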
